A study of Mus musculus with 9 samples.

Results

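The low-albumin hepatocytes described here are 491 cells of a mouse liver single-cell RNA-seq matrix, out of 759 hepatocytes among 4617 cells with at least 200 detected genes (4694 cells in all). A cell was taken as a hepatocyte when the transcripts of Alb, Apoa1, Ttr, Fabp1, Serpina1c, Ass1 and Mup3 together held at least 1% of its unique molecular identifiers (UMIs, tags that let copies made by PCR be counted once). It was taken as low-albumin when Alb held less than 0.6% of its UMIs and fewer than 20 UMIs of Clu were counted. The remaining hepatocytes were 238 high-albumin cells, with Alb at 0.6% or more and Clu under the same limit, and 30 Clu-high cells with at least 20 Clu UMIs.

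The matrix pools 6 samples labelled CluKO, from C57BL/6J mice aged 6 to 8 weeks that, per the design text, received recombinant human clusterin while carbon tetrachloride (CCl4), a hepatotoxin, was injected. The design text names 3 such mice, and neither the time on CCl4 nor the position of the clusterin mutation is given. The other groups of the series, wild-type mice after 0, 2 and 4 weeks of CCl4 (1 sample each), were not analysed here. Livers were digested with enzymes and the cells were pooled on a microwell chip, and barcodes carry no sample name, so all values come from 1 pooled sample. No mouse can be told from another, each hepatocyte group may hold unequal numbers of cells from each mouse, and no test between groups was possible. Intervals given below are 95% intervals for counting error only.

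Hepatocytes make most plasma proteins. Transcripts of secreted and membrane proteins are translated on ribosomes at the endoplasmic reticulum (ER), whereas transcripts of cytosolic enzymes are translated on free ribosomes. Hepatocytes also differ by their place in the lobule: periportal cells favour urea synthesis, gluconeogenesis and amino acid breakdown, and pericentral cells favour glutamine synthesis and cytochrome P450 metabolism.

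A short stretch of promoter is shown for 4 genes because they stand on both sides of the comparison below: albumin and the fibrinogen alpha chain, both secreted and lower in low-albumin cells, and the cytosolic enzymes Adh1 and Bhmt, which were not. Each runs from 250 bases before to 50 bases after the RefSeq start on the gene's strand (GRCm38.p6), and the capital marks the base at that start. The gene spans given below are those of GENCODE and begin elsewhere. The marked bases of Fga, Adh1 and Bhmt lie inside these spans, and that of Alb lies before its span. The Alb promoter lies at chr5:90460620-90460919 on the plus strand.
Alb: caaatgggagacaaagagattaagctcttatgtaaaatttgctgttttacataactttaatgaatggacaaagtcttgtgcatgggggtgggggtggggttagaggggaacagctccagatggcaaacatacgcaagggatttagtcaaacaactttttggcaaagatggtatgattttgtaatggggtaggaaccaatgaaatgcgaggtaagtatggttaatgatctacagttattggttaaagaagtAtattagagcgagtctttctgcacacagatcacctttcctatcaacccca
The Fga promoter lies at chr3:83025903-83026202 on the plus strand.
Fga: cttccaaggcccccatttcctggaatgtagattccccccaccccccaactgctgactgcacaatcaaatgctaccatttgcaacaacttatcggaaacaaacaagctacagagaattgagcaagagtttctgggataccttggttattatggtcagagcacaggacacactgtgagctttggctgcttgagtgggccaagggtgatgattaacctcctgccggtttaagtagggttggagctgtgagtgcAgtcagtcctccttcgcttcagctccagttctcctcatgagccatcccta
The Adh1 promoter lies at chr3:138277335-138277634 on the plus strand, and the Bhmt promoter at chr13:93637709-93638008 on the minus strand.
Adh1: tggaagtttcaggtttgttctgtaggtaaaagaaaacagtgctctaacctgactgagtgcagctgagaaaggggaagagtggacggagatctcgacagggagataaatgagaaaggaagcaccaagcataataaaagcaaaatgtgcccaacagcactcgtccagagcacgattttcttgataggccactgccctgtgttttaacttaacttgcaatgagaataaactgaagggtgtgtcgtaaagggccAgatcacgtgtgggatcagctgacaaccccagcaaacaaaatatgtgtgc
Bhmt: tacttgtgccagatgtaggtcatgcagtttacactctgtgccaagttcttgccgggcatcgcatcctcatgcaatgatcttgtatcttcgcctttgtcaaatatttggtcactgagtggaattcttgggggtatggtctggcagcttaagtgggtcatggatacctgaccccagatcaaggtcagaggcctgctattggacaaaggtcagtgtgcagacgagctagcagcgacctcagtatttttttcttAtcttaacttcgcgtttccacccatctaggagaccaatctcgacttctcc

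The 491 cells carried hepatocyte transcripts well above the background of free RNA, here taken from 292 cells outside the hepatocytes in which S100a8 and S100a9 held at least 1% of UMIs (neutrophil-marker cells). Of 15 hepatocyte markers 4 are rule genes, and of the other 11 the median low-albumin cell showed 9 (range 4 to 11), against 9 in high-albumin cells, 8 in Clu-high cells and 1 in neutrophil-marker cells. Adh1, an alcohol dehydrogenase (ENSMUSG00000074207, GRCm38 chromosome 3, 138260991 to 138290698, plus strand), was found in 99.4% of low-albumin cells after every cell was thinned to 2000 UMIs, against 98.7% of high-albumin cells and 12.3% of neutrophil-marker cells. Bhmt, the betaine-homocysteine methyltransferase (ENSMUSG00000074768, chromosome 13, 93616675 to 93637961, minus strand), was found in 93.1% of thinned low-albumin cells, against 93.7% of high-albumin cells and 8.22% of neutrophil-marker cells. Hnf4a, a transcription factor that defines hepatocytes, stood at 131 CPM (the UMIs of a gene over all UMIs of the group, scaled to 1000000) in low-albumin cells, against 116 CPM in high-albumin cells, 82.1 CPM in Clu-high cells and 1.98 CPM in neutrophil-marker cells. Adh1, Bhmt and Hnf4a are not among the rule genes.

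Depth was alike in the low- and high-albumin cells. Median UMIs per cell were 3358 (range 2371 to 31423) in low-albumin cells, 3258.5 in high-albumin cells, 7779 in Clu-high cells and 3919.5 in neutrophil-marker cells. Median detected genes were 1447 in low-albumin cells, 1415.5 in high-albumin cells, 2297 in Clu-high cells and 1111 in neutrophil-marker cells. The summed UMIs were 2155461 in low-albumin cells, 966356 in high-albumin cells and 316644 in Clu-high cells. Mitochondrially encoded transcripts held a median of 0.0946% of UMIs in low-albumin cells, against 0.128% in high-albumin cells, 0.180% in Clu-high cells and 0.710% in neutrophil-marker cells.

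The values that chose the cells were as follows. Alb (ENSMUSG00000029368, chromosome 5, 90460897 to 90476602, plus strand) held a median of 0.159% of UMIs per low-albumin cell (0 to 0.598%), against 1.11% per high-albumin cell and 1.58% per Clu-high cell. Summed over cells, Alb stood at 2064 CPM (2004 to 2126) in low-albumin cells, against 11904 CPM (11688 to 12124) in high-albumin cells, and at 130 CPM in neutrophil-marker cells. A UMI of Alb was found in 89.8% of thinned low-albumin cells, against 100% of high-albumin cells and 16.8% of neutrophil-marker cells. The 7 genes of the rule together held a median of 3.04% of UMIs in low-albumin cells, against 5.73% in high-albumin cells and 6.33% in Clu-high cells.

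The levels of the other rule genes are given as a description, since the rule shaped them, and nothing is read from them. Apoa1, the main protein of high-density lipoprotein, stood at 2118 CPM in low-albumin cells, against 7180 CPM in high-albumin cells. Ttr, the thyroid hormone carrier transthyretin, stood at 5359 CPM in low-albumin cells, against 13379 CPM in high-albumin cells. Serpina1c, an alpha-1-antitrypsin, stood at 2698 CPM in low-albumin cells, against 5367 CPM in high-albumin cells, and the major urinary protein Mup3 at 1034 CPM in low-albumin cells, against 3977 CPM in high-albumin cells. Fabp1, the liver fatty acid binding protein, stood at 14417 CPM (14257 to 14578) in low-albumin cells, against 12339 CPM (12119 to 12563) in high-albumin cells, and Ass1, the argininosuccinate synthase of the urea cycle, at 3646 CPM in low-albumin cells, against 3599 CPM in high-albumin cells.

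Cells on both sides of the albumin limit had close shares of Adh1 and Bhmt. The 38 cells with Alb between 0.5 and 0.6% of UMIs had median shares of 0.706% for Adh1 and 0.513% for Bhmt, and the 32 cells just outside, between 0.6 and 0.7%, had 0.722% and 0.462%. At the lower limit of the 7-gene sum, 25 low-albumin cells lay between 1.0 and 1.2% of UMIs, with a median Adh1 share of 0.250%, and 22 cells lay just outside between 0.8 and 1.0%, with 0.134%. Markers of other cell types, described next, were found in 15 of the 25 cells inside and in 20 of the 22 outside. Clu numbered 10 to 19 UMIs in 11 of the low-albumin cells, and 6 cells with Alb under 0.6% were left out for 20 or more Clu UMIs.

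Some low-albumin cells also carried transcripts of other cell types. Markers of a non-erythroid type held at least 1% of UMIs in 35 of the 491 cells, against 13 of 238 high-albumin cells. By list, 23 of the low-albumin cells passed 1% for macrophage and monocyte markers, 9 for neutrophil markers, 6 for antigen-presenting markers and 1 for mesothelial markers, and none passed for T and NK, B and plasma, stellate, endothelial or cholangiocyte markers. Erythroid markers, mainly haemoglobin, held at least 2% in 62 low-albumin cells, against 26 high-albumin cells. Together 96 of 491 low-albumin cells passed one of these limits, against 37 of 238 high-albumin cells and 1 of 30 Clu-high cells. They were most frequent at the edge of the hepatocyte rule, where 48 of the 107 low-albumin cells with a 7-gene sum of 1 to 2% carried them, against 48 of the 384 cells at 2% or more.

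Summed over cells, the 15 macrophage and monocyte markers stood at 2254 CPM in low-albumin cells, against 1107 CPM in high-albumin cells, and at 622 CPM in low-albumin cells, against 571 CPM in high-albumin cells, once the cells with such markers were left out of both groups. The 8 neutrophil markers stood at 4109 CPM in low-albumin cells, against 1258 CPM in high-albumin cells, and at 352 CPM in low-albumin cells, against 386 CPM in high-albumin cells without those cells. The 7 antigen-presenting markers stood at 478 CPM in low-albumin cells, against 114 CPM in high-albumin cells, and at 117 CPM in low-albumin cells, against 105 CPM in high-albumin cells, without those cells. The 5 erythroid markers stood at 36869 CPM in low-albumin cells, against 33005 CPM in high-albumin cells, and at 4846 CPM in low-albumin cells, against 5001 CPM in high-albumin cells, without those cells. In the remaining 395 low-albumin and 201 high-albumin cells these 4 lists differed little. The exclusion limits these same markers in both groups, so nothing is read from that closeness. Of defining markers, Epcam (cholangiocytes) had 0 UMIs in every hepatocyte group, and Lrp2, the endocytic clusterin receptor, had 1 UMI in low-albumin cells and 0 in high-albumin and Clu-high cells. Results below are for all 491 cells, with values for the 395 given beside many of them.

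**Figure D1:**
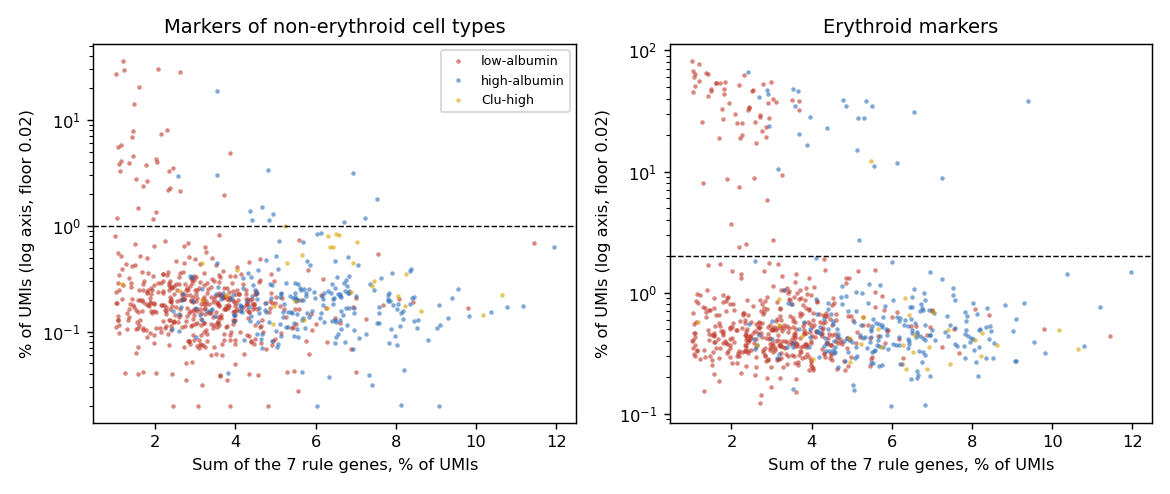
Markers of other cell types per hepatocyte. Each point is 1 cell, placed by the share of UMIs of the 7 rule genes (x axis) and of non-erythroid markers (left) or erythroid markers (right, both log axes), with a dashed line at the 1% or 2% limit. In all, 35 low-albumin cells lie above the left line and 62 above the right line, and 48 of the 96 cells above either line have a rule-gene sum of 1 to 2%, a range that holds 107 of the 491 cells.

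Low-albumin and high-albumin cells were compared gene by gene over 3245 genes whose count over both groups reached 30 and whose level reached 50 CPM in either group, as log2 of the ratio of CPM with 20 CPM added to each side. Of these, 223 genes (6.87%) were lower by 2-fold or more in low-albumin cells and 31 (0.955%) were higher by as much, and the median log2 ratio over all genes tested was 0.16. Because Alb itself divided the cells, these differences describe the division and were not tested. Without the cells carrying other markers, 260 of 3341 genes (7.78%) were lower by 2-fold or more and 13 (0.389%) were higher by as much, with a median of 0.17.

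The 12 genes ranked lowest in low-albumin cells were almost all made for the plasma. Kng1, the kininogen precursor of bradykinin, stood at 164 CPM in low-albumin cells, against 1107 CPM in high-albumin cells, 6.74-fold lower (5.97 to 7.62). Cp, the copper-carrying ferroxidase ceruloplasmin (ENSMUSG00000003617, chromosome 3, 19957054 to 20009145, plus strand), stood at 84.9 CPM in low-albumin cells, against 588 CPM in high-albumin cells, 6.92-fold lower (5.85 to 8.22). Fga, the fibrinogen alpha chain (ENSMUSG00000028001, chromosome 3, 83026076 to 83033627, plus strand), stood at 132 CPM in low-albumin cells, against 721 CPM in high-albumin cells, 5.47-fold lower (4.76 to 6.31). Its partner Fgg, the fibrinogen gamma chain, was 4.60-fold lower (4.31 to 4.92).

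The others among the 12 with secreted products were Apcs, the serum amyloid P component, Pzp, a broad protease inhibitor, Serpinc1, which is antithrombin, Itih4, an inter-alpha-trypsin inhibitor heavy chain, Serpina3k and Vtn, which is vitronectin. They were 4.85- to 6.65-fold lower in low-albumin cells. The 2 without a secreted product were Cyp3a11, a drug-metabolising cytochrome P450 of the ER membrane, at 114 CPM in low-albumin cells, against 783 CPM in high-albumin cells (6.86-fold lower, 5.94 to 7.96), and Hsd17b13, a lipid droplet enzyme, at 35.3 CPM in low-albumin cells, against 241 CPM in high-albumin cells. All 12 were at least 2-fold lower also without the cells carrying other markers.

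Among the 12 genes ranked highest in low-albumin cells, 7 were still at least 2-fold higher when the cells with markers of other types were left out. Kpna2, an importin that carries proteins into the nucleus, stood at 245 CPM in low-albumin cells, against 73.5 CPM in high-albumin cells, 3.34-fold higher (2.60 to 4.34). Its log2 ratio was 1.51 in all cells and 1.59 without those cells. Gadd45g, a stress-induced growth arrest gene, stood at 90.5 CPM in low-albumin cells, against 25.9 CPM in high-albumin cells (log2 ratio 1.27, and 1.52 without those cells). Hist1h1e, a linker histone, rested on few molecules, with 110 UMIs in low-albumin cells and 7 in high-albumin cells.

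The other 4 of these 7 genes were Pclaf, a replication-associated clamp-binding factor, Top2a, the topoisomerase of dividing cells, Tmsb10, an actin-binding thymosin, and S100a6, a calcium-binding protein, with log2 ratios of 1.09 to 1.22. The remaining 5 were genes that myeloid cells express strongly: Cyba, Mmp8, Tmsb4x, Anxa1 and Arhgdib. Their log2 ratios were 1.09 to 1.26 in all cells and -0.30 to 0.46 without the cells carrying other markers. Anxa1, for example, stood at 96.5 CPM in low-albumin cells, against 33.1 CPM in high-albumin cells, and at 4860 CPM in neutrophil-marker cells.

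Grouped by where the protein product is found, a classification made after these values were seen, the genes fell into lower and level classes. Of 93 tested genes for secreted proteins, 72 were at least 2-fold lower in low-albumin cells and none higher, with a median log2 ratio of -1.52 and all 93 below 0. Leaving out the 5 rule genes among them, 68 of 88 were lower (median -1.51), and their sum was 50033 CPM in low-albumin cells, against 116714 CPM in high-albumin cells. The background for these counts is the 6.87% of all genes given above. The counts hold genes close to the one that divided the cells, and no test of the class was made.

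Genes for proteins of the ER lumen and membrane followed the same direction, with 34 of 45 at least 2-fold lower and a median of -1.29. Their sum was 12308 CPM in low-albumin cells, against 18508 CPM in high-albumin cells. The 3 ER genes above 0 were Cyb5a, cytochrome b5 (7117 CPM in low-albumin cells, against 5295 CPM in high-albumin cells), and the flavin monooxygenases Fmo5 and Fmo1. Of 9 plasma membrane genes, 6 were at least 2-fold lower (median -1.14), from the organic anion carrier Slco1b2 at -1.89 to the growth hormone receptor Ghr at -0.50.

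The genes placed in the cytosolic class showed no such difference. None of 94 passed 2-fold in either direction, their log2 ratios ran between -0.43 and 0.79, and the median was 0.23. The class does not hold every cytosolic protein: Tmsb10 (1.10) and S100a6 (1.09), named above as higher, are outside it. Their sum was 123592 CPM in low-albumin cells, against 102266 CPM in high-albumin cells. Of 73 nuclear genes for mitochondrial proteins, only Cps1, the carbamoyl phosphate synthase of the urea cycle, passed 2-fold (93.7 CPM in low-albumin cells, against 227 CPM in high-albumin cells), with a class median of 0.16. None of 10 peroxisomal genes passed (median 0.13). Since CPM are shares of a fixed total, fewer transcripts of one class raise the CPM of the rest, and a fall in one class cannot be told apart from a gain in the others.

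Transcripts of the mitochondrial genome went by the cells included. The 6 tested had a median of -0.31 and none passed 2-fold, with sums of 1762 CPM in low-albumin cells and 2103 CPM in high-albumin cells. Without the cells carrying other markers, 2 of 6 were at least 2-fold lower, the median was -0.93, and the sums were 878 CPM in low-albumin cells and 1802 CPM in high-albumin cells. In the same cells the other classes moved little, with 71 of 93 secreted, 38 of 46 ER, 7 of 9 plasma membrane, 0 of 94 cytosolic, 2 of 74 nuclear-encoded mitochondrial and 0 of 10 peroxisomal genes at least 2-fold lower.

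**Figure D2:**
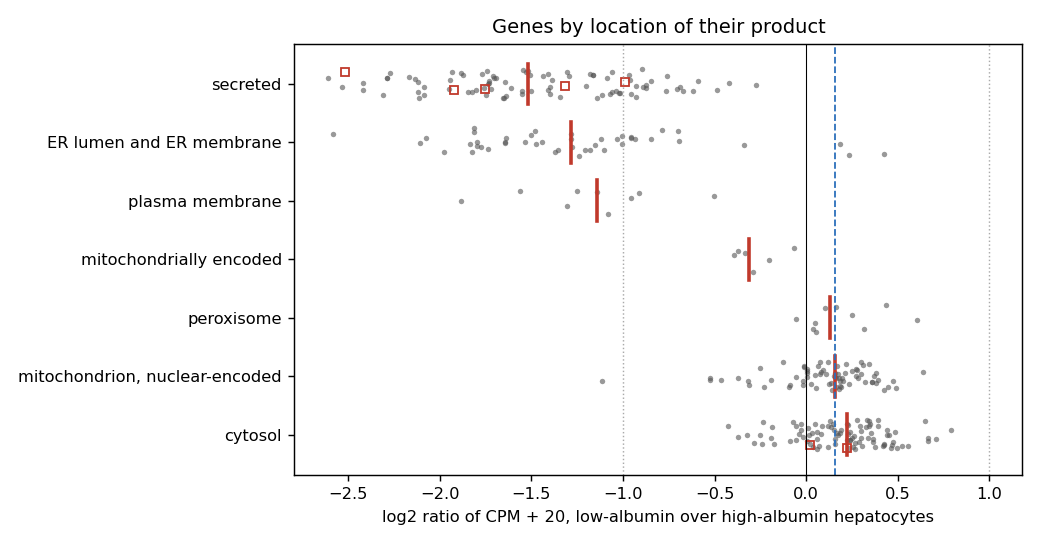
Log2 ratio of low-albumin over high-albumin hepatocytes (x axis, CPM with 20 added) for tested genes, in rows by the location of the protein product. Each point is 1 gene, open squares are rule genes, red bars are class medians, the dashed blue line is the median of all genes tested (0.16), and dotted lines mark 2-fold. The secreted, ER and plasma membrane rows lie left of the other rows, with medians of -1.52, -1.29 and -1.14.

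Malat1, a long RNA kept in the nucleus, was also lower: it stood at 772 CPM in low-albumin cells, against 2432 CPM in high-albumin cells and 5868 CPM in Clu-high cells, 3.15-fold lower (2.96 to 3.36) than in high-albumin cells. Without the cells carrying other markers the values were 613 CPM in low-albumin cells and 2601 CPM in high-albumin cells. Its part in the other differences was not tested.

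Within the secreted class the lists of functions read alike. For these and the lists below, the shares over all genes tested were 6.87% at least 2-fold lower and 0.955% higher. Without the cells carrying other markers they were 7.78% and 0.389%. A list with 1 gene past 2-fold is not read as a result. Of 18 tested coagulation genes, 16 were at least 2-fold lower in low-albumin cells (median -1.72), among them Fgb, the fibrinogen beta chain, at 502 CPM in low-albumin cells, against 2197 CPM in high-albumin cells. Of 14 complement genes, 11 were lower (median -1.53), including C3, the central complement component, at 153 CPM in low-albumin cells, against 470 CPM in high-albumin cells, and the C4b-binding protein C4bp at 89.1 CPM in low-albumin cells, against 366 CPM in high-albumin cells. Of 12 apolipoprotein and lipoprotein assembly genes, 7 were lower (median -1.04). Without the rule gene Apoa1 it was 6 of 11 (median -1.02), and 5 of 10 (median -1.31) when the cells carrying other markers were left out as well. Apoa2 missed the limit with 6597 CPM in low-albumin cells, against 12566 CPM in high-albumin cells. Of the major urinary protein genes 3 were tested, 1 of them the rule gene Mup3, and the other 2 were at least 2-fold lower (median -1.94), although their near-identical copies can share reads, as can those of the Serpina1, Saa, Cyp2c, Gstm, Ugt2b and haemoglobin families.

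Acute-phase genes, which the liver switches on in inflammation, were mostly low as well, with 17 of 23 at least 2-fold lower in low-albumin cells (median -1.30), and 18 of 23 without the cells carrying other markers (median -1.27). Saa1, serum amyloid A, stood at 853 CPM in low-albumin cells, against 2703 CPM in high-albumin cells, and Hamp, the iron hormone hepcidin, at 2309 CPM in low-albumin cells, against 4528 CPM in high-albumin cells. The metal-binding protein metallothionein Mt1, which stays in the cell, went the other way at 5218 CPM in low-albumin cells, against 3005 CPM in high-albumin cells (log2 ratio 0.79).

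Detoxification genes divided in large part by the place of the enzyme, though the ER genes Cyb5a, Fmo5 and Fmo1 named above did not follow. Of 16 genes for cytochrome P450 enzymes, 15 were at least 2-fold lower in low-albumin cells (median -1.51). Without the cells carrying other markers it was 17 of 18 (median -1.44). The full list, which also holds genes such as Cyb5a, had 15 of 19 lower and 2 above 0 (median -1.36). Among the lower enzymes were Cyp1a2 at 136 CPM in low-albumin cells, against 514 CPM in high-albumin cells, and Cyp2c70 at 208 CPM in low-albumin cells, against 783 CPM in high-albumin cells. Cyp2e1, which activates CCl4, stood at 404 CPM in low-albumin cells, against 791 CPM in high-albumin cells, just within 2-fold. Of 27 glutathione transferase and conjugation genes, 6 were lower, all with membrane-bound products: Mgst1, Ephx1 and the glucuronosyltransferases Ugt2b1, Ugt2b5, Ugt2b34 and Ugt2b36. The cytosolic glutathione transferase Gstm1 stood at 6491 CPM in low-albumin cells, against 5413 CPM in high-albumin cells. Of 23 alcohol and aldehyde dehydrogenase genes, 1 was lower, the microsomal retinol dehydrogenase Rdh7.

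Few central metabolism genes passed 2-fold between the groups. Over all genes tested 6.87% were lower and 0.955% higher by as much, so the few calls in these lists lie near that share. No gene of 25 for amino acid breakdown and none of 11 for glycolysis passed 2-fold, with medians of 0.04 and 0.42. Of the glycolysis genes 10 were above 0, and the median of all genes tested was 0.16. Tat, the tyrosine aminotransferase, stood at 1381 CPM in low-albumin cells, against 1363 CPM in high-albumin cells, and the lactate dehydrogenase Ldha at 2613 CPM in low-albumin cells, against 2053 CPM in high-albumin cells. Of 14 urea cycle and nitrogen genes outside the rule only Cps1 passed, and Arg1, the arginase, stood at 1049 CPM in low-albumin cells, against 1196 CPM in high-albumin cells. Of 11 gluconeogenesis genes only G6pc, the ER-bound glucose-6-phosphatase, was lower, at 14.4 CPM in low-albumin cells, against 53.8 CPM in high-albumin cells, whereas the cytosolic Pck1 stood at 733 CPM in low-albumin cells, against 460 CPM in high-albumin cells.

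Among methionine and choline genes 1 of 17 was lower, the ER enzyme Pemt, which makes phosphatidylcholine, at 139 CPM in low-albumin cells, against 315 CPM in high-albumin cells. Of 28 fatty acid oxidation genes 1 was lower, the ER-bound Slc27a5, while the mitochondrial thiolase Acaa2 stood at 2085 CPM in low-albumin cells, against 1594 CPM in high-albumin cells. Lipid synthesis was mixed within a pathway. Of 8 cholesterol synthesis genes 3 were at least 2-fold lower, among them the ER enzymes Sc5d and Ebp, with Sc5d at 58.9 CPM in low-albumin cells, against 291 CPM in high-albumin cells, while the soluble enzymes Hmgcs1 at 292 CPM in low-albumin cells, against 201 CPM in high-albumin cells and Pmvk at 89.5 CPM in low-albumin cells, against 66.2 CPM in high-albumin cells were not. The ER desaturase Scd1 stood at 141 CPM in low-albumin cells, against 554 CPM in high-albumin cells.

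Lists drawn by lobular position mixed both kinds of gene. Of 13 pericentral genes 6 were at least 2-fold lower in low-albumin cells (median -0.93), and 7 of 14 without the cells carrying other markers (median -0.92). Of 17 periportal genes outside the rule 7 were lower (median -0.37), and the count was the same without those cells (median -0.47). Of 10 bile acid genes 4 were lower (median -0.52), all with membrane-bound products: Slc27a5, the uptake carriers Slc10a1 and Slco1b2, and the export pump Abcc2. Without the cells carrying other markers 6 of 11 bile acid genes were lower (median -1.01). None of 28 nuclear genes of oxidative phosphorylation and none of 17 oxidative stress genes passed 2-fold, with medians of 0.15 and 0.25.

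None of 15 liver transcription factor genes passed 2-fold (median 0.02). Cebpb stood at 790 CPM in low-albumin cells, against 531 CPM in high-albumin cells, and Xbp1, which drives secretory capacity, at 199 CPM in low-albumin cells, against 228 CPM in high-albumin cells. Of 20 unfolded protein response genes, 10 were at least 2-fold lower in low-albumin cells (median -0.98), and 13 of 20 without the cells carrying other markers (median -1.17). The lower ones include the ER chaperones Hspa5, at 254 CPM in low-albumin cells, against 690 CPM in high-albumin cells, Calr, which is calreticulin, at 264 CPM in low-albumin cells, against 783 CPM in high-albumin cells, and Hsp90b1 at 154 CPM in low-albumin cells, against 598 CPM in high-albumin cells.

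Of 17 genes linked to injured or dedifferentiated hepatocytes, 4 were at least 2-fold higher in low-albumin cells (Anxa1, Lgals3, S100a6 and Tmsb10), against 0.955% of all genes tested. In the same list 1 was lower, Clu, which the rule limits. Anxa1, Lgals3 and S100a6 are also strong in myeloid cells. Without the cells carrying other markers the log2 ratios were -0.30 for Anxa1, 0.58 for Lgals3, 1.02 for S100a6 and 1.17 for Tmsb10. The keratin Krt8 stood at 1464 CPM in low-albumin cells, against 985 CPM in high-albumin cells. Clusterin itself (Clu, ENSMUSG00000022037, chromosome 14, 65968483 to 65981547, plus strand) stood at 378 CPM (352 to 405) in low-albumin cells, against 1321 CPM (1250 to 1396) in high-albumin cells, and at 38.2 CPM in neutrophil-marker cells. A Clu UMI was found in 40.7% of thinned low-albumin cells (56.4% unthinned), against 81.5% of high-albumin cells (89.1%) and 3.42% of neutrophil-marker cells (8.22%). Clu reads do not check the CluKO label, because the deleted part is not given and a tag at the transcript's end can lie outside it.

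Of 17 cell cycle genes only Top2a passed 2-fold (median 0.58). Top2a stood at 160 CPM in low-albumin cells, against 64.2 CPM in high-albumin cells, and at 298 CPM in neutrophil-marker cells. Without the cells carrying other markers 2 of 17 passed, Top2a and the mitotic kinase Cdk1, which stood at 383 CPM in low-albumin cells, against 160 CPM in high-albumin cells (log2 ratio 1.16). UMIs of both Mki67 and Top2a were found in 21 of 491 low-albumin cells (4.28%, 2.67 to 6.46%), against 2 of 238 high-albumin cells (0.840%, 0.102 to 3.00%). In neutrophil-marker cells the share was 13.7%, but whether those cells were dividing is not known, so they give no background here. At least 5 of 24 cell cycle genes were found in 53.4% of low-albumin, 54.6% of high-albumin and 26.4% of neutrophil-marker cells. Neither hepatocyte share was read as dividing cells, and division was not tested. Of 13 immediate early genes 1 was higher, the NF-kappa-B inhibitor Nfkbia, at 185 CPM in low-albumin cells, against 77.6 CPM in high-albumin cells.

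The share of each cell's transcripts that went to secreted proteins followed albumin within the low-albumin group too. Without the rule genes, secreted-protein genes held a median of 4.49% of UMIs per low-albumin cell (0.677 to 17.3%), against 11.5% per high-albumin cell (3.91 to 24.5%) and 11.9% per Clu-high cell. The ranges overlapped. Cytosolic-protein genes held a median of 10.9% per low-albumin cell, against 8.25% per high-albumin cell and 5.60% per Clu-high cell.

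**Figure D3:**
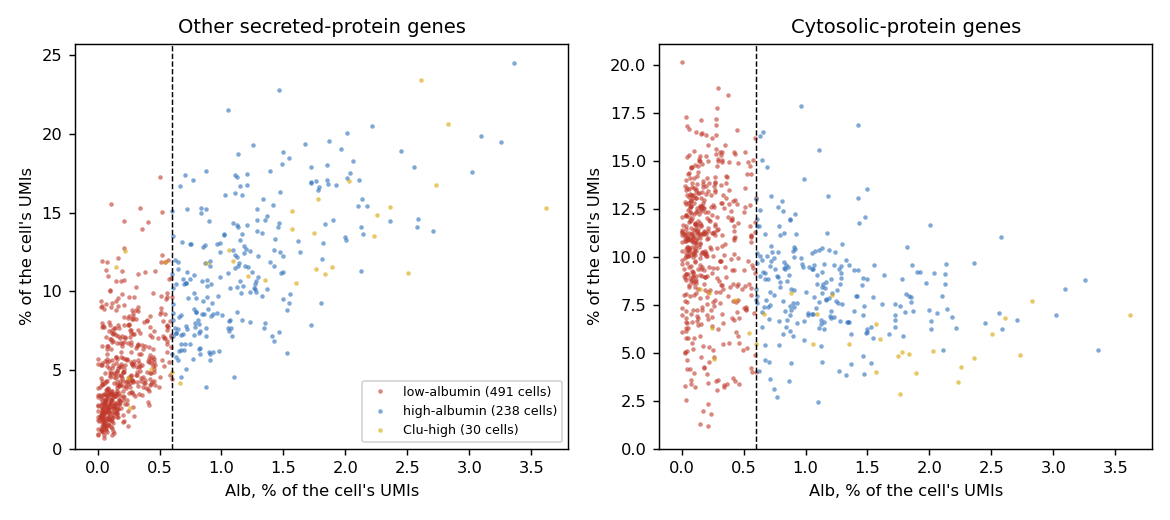
Share of each hepatocyte's UMIs in genes for secreted proteins (left) and for cytosolic proteins (right), both without the rule genes, against its share of Alb (x axis). Each point is 1 cell, and the dashed line is the 0.6% limit. Secreted shares are lower at low albumin, with medians of 4.49% in low-albumin cells and 11.5% in high-albumin cells, and no gap divides the cells at the limit.

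Divided by albumin share, the low-albumin cells formed 4 classes: 157 cells under 0.1%, 129 at 0.1 to 0.2%, 130 at 0.2 to 0.4% and 75 at 0.4 to 0.6%. Other secreted-protein genes summed to 34312 CPM, 47073 CPM, 60613 CPM and 71184 CPM in these 4 classes, and to 91625 CPM, 109084 CPM and 140746 CPM in high-albumin cells at 0.6 to 0.8%, 0.8 to 1.2% and over 1.2%. The sum rose from class to class through both groups. Its rise across the limit, from 71184 to 91625 CPM, was larger than the one just below, from 60613 to 71184 CPM. Whether the limit holds a break was not tested. ER genes summed to 11658, 12354, 11767 and 14439 CPM over the low-albumin classes and reached 21134 CPM above 1.2%, so this sum varied less within the low-albumin group. Most of the sum in low-albumin cells was Cyb5a, which went against its class as given above. The course of the other ER genes over these classes was not computed apart.

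Adh1 stood at 10637, 10353, 8901 and 7223 CPM over the 4 low-albumin classes, and at 7762, 6532 and 5645 CPM over the high-albumin classes, so that it was lower at high albumin but not at each step. Malat1 stood at 476, 679, 743 and 1597 CPM in the low-albumin classes, against 2382, 2624 and 2302 CPM in the high-albumin classes. Median UMIs per cell did not follow albumin, at 3358, 3558, 3268 and 3460 over the low-albumin classes. The mitochondrially encoded sum had no even course, at 972, 1837, 1626 and 3495 CPM over the low-albumin classes, and at 560, 1092, 656 and 1577 CPM without the cells carrying other markers.

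**Figure D4:**
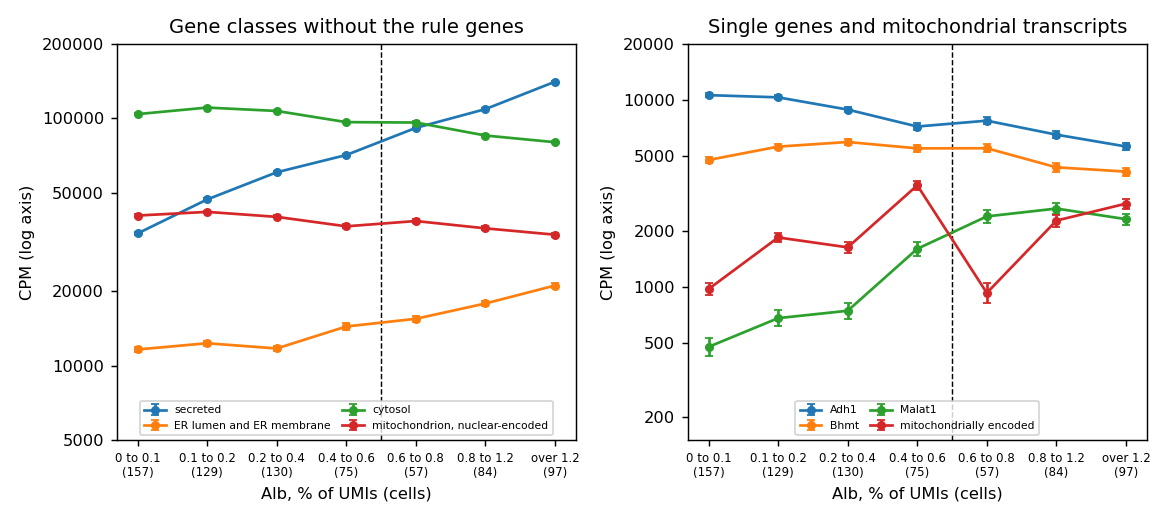
Summed CPM (y axes, log) of gene classes without the rule genes (left) and of single genes and mitochondrial transcripts (right) in 7 classes of albumin share (x axis, number of cells in brackets). Error bars are 95% counting intervals, and the dashed line parts low-albumin from high-albumin classes. The secreted sum is 34312 CPM under 0.1% and 140746 CPM over 1.2%.

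The low-albumin cells differed among themselves. The Fano factor, the variance of the thinned counts over their mean, had a median of 1.37 over 737 genes. Among the 15 highest values were haemoglobin Hbb-bs at 604 and S100a8 at 269, genes of the other cell types described above. Apoe, not in those marker lists, stood at 59.6, and at 3.73 without the cells carrying other markers. Its mean was 7.22 UMIs per thinned low-albumin cell and 15.2 per thinned high-albumin cell. In the 395 cells without markers of other types the highest values were those of Apoa1 at 22.1, Apoa2 at 18.7, Mt1 at 16.9, Ttr at 16.5 and Malat1 at 14.0. Further down were Bhmt at 10.5 and the periportal serine dehydratase Sds at 7.71. Apoa1 and Ttr are rule genes, so the rule may have shaped their spread.

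Genes of lobular position varied within the low-albumin cells. After thinning, Cyp2e1, a pericentral gene, was found in 185 of 491 cells (37.7%) and Sds, a periportal gene, in 131 cells (26.7%), against 0.685% and 2.40% of neutrophil-marker cells. Sds was found in 5.95% of the cells with Cyp2e1, against 39.2% of the cells without it. In high-albumin cells the same shares were 5.83% and 57.0%. The pericentral genes Glul and Cyp1a2 parted low-albumin cells less. Sds was found in 17.3% of those with Glul, against 27.8% without it, and in 15.8% of those with Cyp1a2, against 29.3% without it. In high-albumin cells the shares were 0% and 37.7% for Glul, found in 18 cells, and 27.5% and 42.4% for Cyp1a2. Both groups thus held cells with Sds and cells with Cyp2e1, with few cells holding both.

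Over the 395 low-albumin cells without other markers, 190 pairs of 20 genes were correlated as a description of 1 pooled library. Ass1 went with Arg1 (Spearman rho 0.75), with the glycine methyltransferase Gnmt (0.71) and with Sds (0.52). Pck1 (0.54) and the acute-phase genes Saa1 (0.51) and Saa2 (0.53) went with Ass1 as well. Cyp2e1 ran against Arg1 (-0.42) and Sds (-0.39). Mt1 went with Mt2 (0.79), Saa1 with Saa2 (0.64) and Ttr with Apoa2 (0.71). Paralogues such as Mt1 and Mt2 or Saa1 and Saa2 may share reads. Ass1 and Ttr are rule genes, so the rule may have shaped the pairs that hold them.

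**Figure D5:**
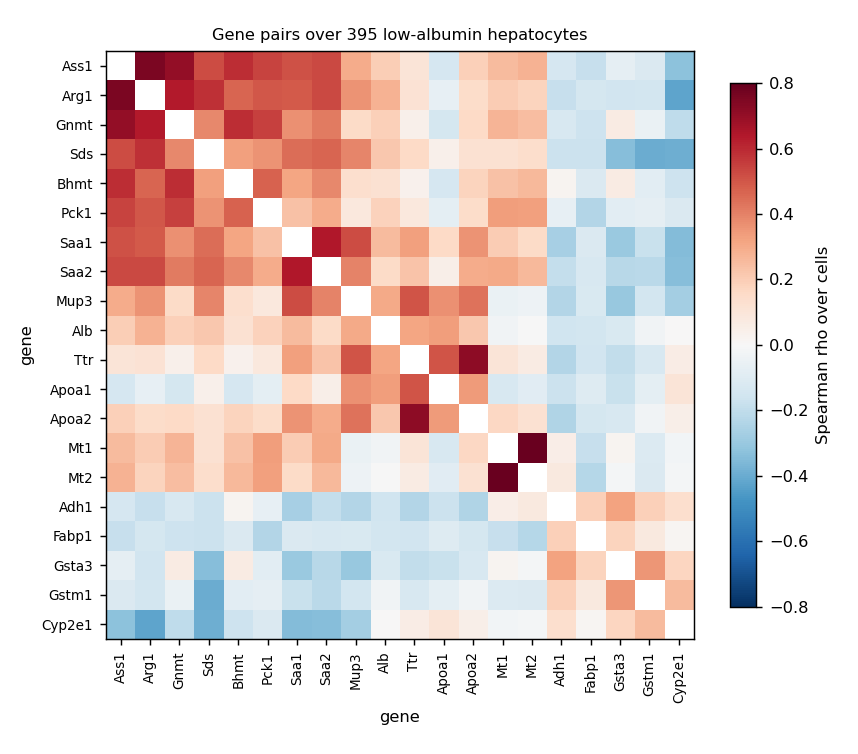
Spearman correlation (colour scale) over 395 low-albumin hepatocytes without markers of other cell types, for pairs of 20 genes on both axes, in cells thinned to 2000 UMIs. A block of Ass1, Arg1, Gnmt, Sds and Bhmt is seen at the top left, with Ass1 and Arg1 at 0.75, and Cyp2e1 runs against it with -0.42 for Arg1. Pck1, Saa1 and Saa2 also go with Ass1, at 0.54, 0.51 and 0.53. Ass1, Mup3, Alb, Ttr, Apoa1 and Fabp1 are rule genes.

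When the low-albumin cells were classed by Ass1, a rule gene, 181 cells had 0 to 3 Ass1 UMIs, 149 had 4 to 9 and 161 had 10 to 39 after thinning. Arg1 stood at 174, 993 and 2236 CPM over these classes, and Bhmt at 2779, 5151 and 9115 CPM. Cyp2e1 stood at 550, 430 and 180 CPM. Adh1 varied little along the same axis, at 9285, 8859 and 9323 CPM, and Alb stood at 1762, 2235 and 2208 CPM. The rule shaped both Ass1 and Alb, so these classes only describe the cells it chose.

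Against the 30 Clu-high cells, the low-albumin cells differed in more genes: of 3484 tested, 269 (7.72%) were higher by 2-fold or more and 450 (12.9%) were lower by as much, with a median log2 ratio of 0.22. Periportal and amino acid genes led those higher. Pck1, the rate-limiting gluconeogenic enzyme, stood at 733 CPM in low-albumin cells, against 34.7 CPM in Clu-high cells, 21.1-fold higher (11.8 to 42.4). Mat1a, which makes S-adenosylmethionine, was 11.4-fold higher (7.87 to 17.2), Sds 13.6-fold (7.38 to 28.5), Gnmt 7.17-fold (5.85 to 8.90) and Arg1 7.55-fold (5.61 to 10.4). Of 24 amino acid breakdown genes, 19 were at least 2-fold higher, and of 14 periportal genes outside the rule 10 were higher and 2 lower.

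The genes ranked lowest against Clu-high cells were Ly6d, a surface protein of the Ly6 family, at 242 CPM in low-albumin cells, against 5814 CPM in Clu-high cells (24.1-fold lower, 21.8 to 26.6), the insulin-like growth factor binding protein Igfbp1 (20.9-fold lower, 16.8 to 26.1), the carboxylesterase Ces2e (22.5-fold lower, 16.6 to 30.9), Apob, the core protein of very-low-density lipoprotein (14.5-fold lower, 11.8 to 17.9), and Cp (13.3-fold lower, 11.1 to 16.0). Ly6d did not part low-albumin from high-albumin cells: it stood at 242 CPM in low-albumin cells, against 263 CPM in high-albumin cells. Secreted-protein genes were lower here too, with 66 of 91 at least 2-fold lower and 2 higher (median -1.56). The mitochondrially encoded sum was 1762 CPM in low-albumin cells, against 17281 CPM in Clu-high cells, 9.80-fold lower. Per cell the medians lay closer, at 0.0946% of UMIs in low-albumin cells and 0.180% in Clu-high cells, where the upper quartile was 2.79% and the highest cell 5.63%, so the Clu-high sum was carried by part of the 30 cells.

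Markers of other cell types moved with this comparison: the 8 neutrophil markers summed to 4109 CPM in low-albumin cells, against 278 CPM in Clu-high cells, and the 15 macrophage and monocyte markers to 2254 CPM in low-albumin cells, against 556 CPM in Clu-high cells. The 5 erythroid markers summed to 36869 CPM in low-albumin cells, against 7911 CPM in Clu-high cells. Cholangiocyte markers went the other way, at 133 CPM in low-albumin cells, against 2135 CPM in Clu-high cells, mainly through Spp1 (osteopontin), at 113 CPM in low-albumin cells, against 2110 CPM in Clu-high cells. The part of these markers in the differences was not tested. Depth also differed, with median UMIs of 3358 in low-albumin cells and 7779 in Clu-high cells, and the Clu limit is a count that deeper cells reach more easily. The count of genes at least 2-fold higher in low-albumin cells was 475 once every cell was thinned to 2000 UMIs, and 80 with the Clu limit at 10 UMIs. With that limit the log2 ratios were 1.94 for Pck1, 1.68 for Mat1a, 1.32 for Sds and 1.23 for Gnmt, in place of 3.78, 3.25, 3.13 and 2.76, and Arg1 fell short of 2-fold at 0.73. Ly6d stood at -3.73 with that limit and at -2.34 with the rule genes at 5% of UMIs or more, in place of -4.48, and Igfbp1 at -3.12 and -2.49 in place of -3.93.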

How the data were processed

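Single-cell RNA was measured in mouse liver on a Singleron microwell chip with the GEXSCOPE kit. The authors deposited raw UMI counts for each gene and cell as sparse matrices, and a check found whole numbers throughout. Per the submitters' processing notes the build was GRCm38. The aligner, the counter and the calling of cells were not given in the sources used here. Of the 4 matrices, the 1 whose rows the gene table names (53713 lines, samples labelled CluKO) was used, and the wild-type matrices were not analysed here.

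Cells with at least 200 genes were kept, without a mitochondrial limit. No doublet caller was run, and cells with markers of other types were set apart at 1% of UMIs, or 2% for erythroid markers. Each group's counts were added over its cells and scaled to CPM with Python 3.11.15, numpy 2.4.6, scipy 1.17.1 and pandas 2.3.3, and plotted with matplotlib 3.10.9. Intervals are at 95%, cover counting error only, and are exact Poisson for levels, conditional binomial for ratios and exact Clopper-Pearson for shares. Log2 ratios add 20 CPM to each side, and genes needed a summed count of 30 and 50 CPM on either side. For shares of cells with a UMI, Fano factors and correlations every cell was thinned to 2000 UMIs (seed 1), and no hepatocyte fell below that depth.

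The rule for named genes took the 12 highest and 12 lowest log2 ratios against high-albumin cells and 5 of each against Clu-high cells, leaving out mitochondrial, ribosomal, immunoglobulin, haemoglobin, Gm-number, Rik, Malat1, Neat1, Xist, Y-linked and rule genes, Clu and markers of other types. In each list, members with the most UMIs or past 2-fold were named. Genes such as Cyb5a, G6pc, Pemt, Slc27a5, Hmgcs1, Pmvk and Malat1 were also named after their values were seen. Of 781 list genes, 778 were found in the gene table. The cells, lists and comparisons were chosen with earlier results of these data known. With 1 pooled sample no test was run. The calculation was tested on simulated data. Results on a few items are not reported here. In all, 14 alternatives were run. The exclusion of cells with markers of other types at these limits and the lists and classes without rule genes were added after seeing the data.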

Additional observations from a re-analysis of the deposited data

How the results depend on the processing

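There were 14 alternatives, 13 planned and 1 chosen after seeing the data. Of 1232 recomputed levels, log2 ratios and medians, 1067 stayed within their limits, 161 moved by more and 4 reversed a 2-fold call. These leave out the number of cells and the counts of genes past 2-fold, which moved more and are described below. Limits were counting intervals for genes, the spread of member genes for lists, and a fixed width for the median of all genes. Apart from those 4, 23 medians of 9 gene lists, between -0.45 and 0.20 as reported, fell on the other side of 0, at -0.36 to 0.16. All 12 genes ranked lowest against high-albumin cells stayed at least 2-fold lower in every alternative, whereas of the 12 ranked highest 9 kept their direction and 3 stayed at least 2-fold higher. Against high-albumin cells the count of genes at least 2-fold lower was 203 to 267, and the median of all genes 0.07 to 0.17. The medians of secreted (-1.75 to -1.30), ER (-1.62 to -1.10) and cytosolic genes (0.05 to 0.28) kept their signs. The count of genes at least 2-fold higher, 31 as reported, was 61 with an offset of 5 CPM, 9 and 53 with the rule genes at 2% or 5% of UMIs or more, 7 with an albumin limit of 0.4%, 14 without cells holding 1% of all other-type markers, and 13 with the exclusion added later. Requiring 5% left 39 cells in place of 491; there Cyba stood at -0.16 and Mmp8 at -0.11. Anxa1 stood at -0.49 and -0.30 under the planned and the added exclusion. Against Clu-high cells the count higher, 269 as reported, was 166 at 5%, 80 with Clu under 10 UMIs and 475 after thinning, and the count lower, 450 as reported, was 255 at 5%. The cause was not tested. No paired analysis was possible because the matrix holds 1 pooled sample whose cells carry no replicate number. With 7 Hist1h1e UMIs in high-albumin cells, depth limits the genes with few counts.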
